A study of Homo sapiens with 6 samples.

Results

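The genes described here encode the 2 mTOR protein complexes and the proteins that act directly on them: MTOR, MLST8, RPTOR, RICTOR, DEPTOR, AKT1S1, TSC1, TSC2, RHEB and DDIT4. They were taken by symbol, and each of the 10 matched 1 of the 57820 gene rows and passed the expression filter. Poly-A RNA was sequenced from U266, an established line of human myeloma (plasma) cells: 3 control libraries and 3 libraries of cells transduced with a lentivirus that carries MYC behind the EF1A promoter, which is active in most cell types. The labels leave unsaid whether the control cells carry an empty vector, whether the MYC cells are a clone or a pool, or whether libraries of a group are separate cultures, so p-values measure only the spread between these libraries, which may be technical.

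mTOR is a kinase that couples nutrients and growth factors to cell growth. In complex 1 (mTORC1), with the scaffold RPTOR, it promotes protein, lipid and nucleotide synthesis and restrains autophagy. In complex 2 (mTORC2), with the scaffold RICTOR, it phosphorylates AKT and related kinases. MLST8 sits in both complexes, AKT1S1 (also called PRAS40) inhibits mTORC1, and DEPTOR inhibits both. The GTPase RHEB activates mTORC1 on the lysosome, the TSC1-TSC2 complex switches RHEB off, and DDIT4 (also called REDD1), which is induced by hypoxia and other stresses, acts through that complex to lower mTORC1 activity. A subset of myelomas is known for high DEPTOR.

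Each library held between 27139978 and 158667309 expected counts in all. MYC stood at 3.91, 4.16 and 4.51 CPM (counts scaled to the library total, with TMM factors) in the controls and at 105, 110 and 92.1 CPM in the MYC libraries, so every library matched its label; this row does not separate endogenous from vector transcripts. Of 8 plasma cell markers 7 were at 1 TPM (scaled to transcript length and library total) or more in every library, and the 4 B cell markers were under 1 TPM in every library. The plasma cell markers moved with the groups: their summed level was 2115 to 2336 TPM in the controls and 1492 to 1517 TPM in the MYC libraries. Of the 8, 5 were called lower (edgeR), each in all 17 alternatives: SDC1 (log2 fold change -1.17), IRF4 (-0.71), PRDM1 (-0.47), XBP1 (-0.38) and TNFRSF17 (-0.21). CD38 was called higher (2.53), and MZB1 (0.31) and POU2AF1 (-0.16) were not called as fitted. CD38 was the 1 plasma cell marker under 1 TPM in the controls. It averaged 0.43 TPM there and 2.29 TPM in the MYC libraries, a difference of 1.2 on the log2(TPM + 1) scale. With the GC offset explained below, the 5 lower markers stood at -0.42, -0.77, -0.69, -0.55 and -0.48 in that order, and CD38 at 2.26. MZB1 was called higher with that offset (0.97, adjusted p = 1.88e-06, edgeR) and POU2AF1 lower (-0.3, adjusted p = 0.00807, edgeR). No marker was at 0 in every library. Summed levels went from 8.91 to 11.6 TPM in the controls and 15.8 to 17.7 TPM in the MYC libraries for the 6 T and NK cell markers, from 1.61 to 2.3 and 1.01 to 1.59 TPM for the 4 myeloid markers, from 2.88 to 3.37 and 1.98 to 2.36 TPM for the 4 stromal markers, and from 4 to 4.78 and 7.59 to 8.69 TPM for the 4 epithelial markers. The part of these markers and of other cells in the results was not tested. In bulk RNA fewer cells with a transcript and less of it per cell cannot be told apart.

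A property of the transcripts bears on every value below. The MYC libraries held fewer reads of GC-rich transcripts: against the mean of the controls, the median log2 CPM of the 1304 tested genes with over 62% GC stood at -1.1, -1.26 and -1.64 in MYC replicates 1, 2 and 3, and between -0.05 and 0.09 in the control libraries. For the 3300 genes with 42% GC or less the MYC libraries stood at 0.17, 0.24 and 0.32. The mTOR genes span this range, from 37.7% GC (RICTOR) to 63.2% GC (MLST8). Each fold change is therefore given both as fitted and with a GC offset that removes each library's trend of log2 CPM on GC content. Whether the trend arose in the cells or in library preparation cannot be told apart, since it separates the same libraries as the groups do.

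To show what this difference in composition looks like, the central 120 coding bases of 4 members are printed from GENCODE 29 transcripts (GRCh38), 5′ to 3′, with G and C in capitals. Positions count from the first base of the start codon. MLST8 (chromosome 16, + strand, ENST00000301724.14, bases 433 to 552) and DDIT4 (chromosome 10, + strand, ENST00000307365.3, bases 289 to 408) had lower CPM in the MYC libraries. RHEB (chromosome 7, - strand, ENST00000262187.9, bases 217 to 336) had higher CPM, and RICTOR (chromosome 5, - strand, ENST00000296782.9, bases 2539 to 2658) overlapped between the groups.
MLST8: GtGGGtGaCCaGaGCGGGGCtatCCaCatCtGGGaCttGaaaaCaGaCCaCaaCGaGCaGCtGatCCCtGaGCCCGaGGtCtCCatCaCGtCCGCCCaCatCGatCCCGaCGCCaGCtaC
DDIT4: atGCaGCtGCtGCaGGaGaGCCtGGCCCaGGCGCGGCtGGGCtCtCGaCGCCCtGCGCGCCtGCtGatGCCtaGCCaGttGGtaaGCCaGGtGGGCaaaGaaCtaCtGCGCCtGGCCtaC
RHEB: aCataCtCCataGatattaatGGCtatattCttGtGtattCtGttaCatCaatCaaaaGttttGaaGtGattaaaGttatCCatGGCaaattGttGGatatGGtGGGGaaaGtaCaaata
RICTOR: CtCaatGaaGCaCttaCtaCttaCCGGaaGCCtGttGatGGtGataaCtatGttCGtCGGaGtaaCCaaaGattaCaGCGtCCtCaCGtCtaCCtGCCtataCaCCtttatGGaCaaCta
G and C made up 60.8% of the MLST8 stretch, 66.7% of DDIT4, 30.8% of RHEB and 44.2% of RICTOR. Over the whole coding sequence the shares were 63.1%, 65.1%, 40.5% and 40.5% in the same order, and at the wobble base of the codons 84.8%, 83.7%, 41.1% and 33.9%.

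Of the 10 genes, 2 were called higher and 5 lower in the MYC libraries and 3 (MTOR, RICTOR and TSC1) were not called, by edgeR's quasi-likelihood test at an adjusted p under 0.05. Among all 17679 genes tested 28.8% were called higher and 32.1% lower, or 60.8% in either direction, so the 7 of 10 called lie near the share of all genes. The CPM of the groups did not overlap for 8 of the 10 genes, 3 with MYC higher and 5 with MYC lower, beside 67.1% of all genes (32.1% and 35.1%). DEPTOR and RHEB were higher, and MLST8, DDIT4, RPTOR, TSC2 and AKT1S1 were lower. With the GC offset 2 were called higher and 4 lower, against 25.8% and 32.7% of all genes, but not the same genes: DEPTOR and AKT1S1 were higher, and MLST8, DDIT4, RPTOR and TSC1 were lower. The median log2 fold change of the 10 was -0.33, and -0.05 with the offset, beside -0.02 and -0.06 over all genes tested. DEPTOR, MLST8, DDIT4 and RPTOR were thus called in 1 direction both ways, and each of these 4 was called in that direction in all 17 alternative settings.

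**Figure D1:**
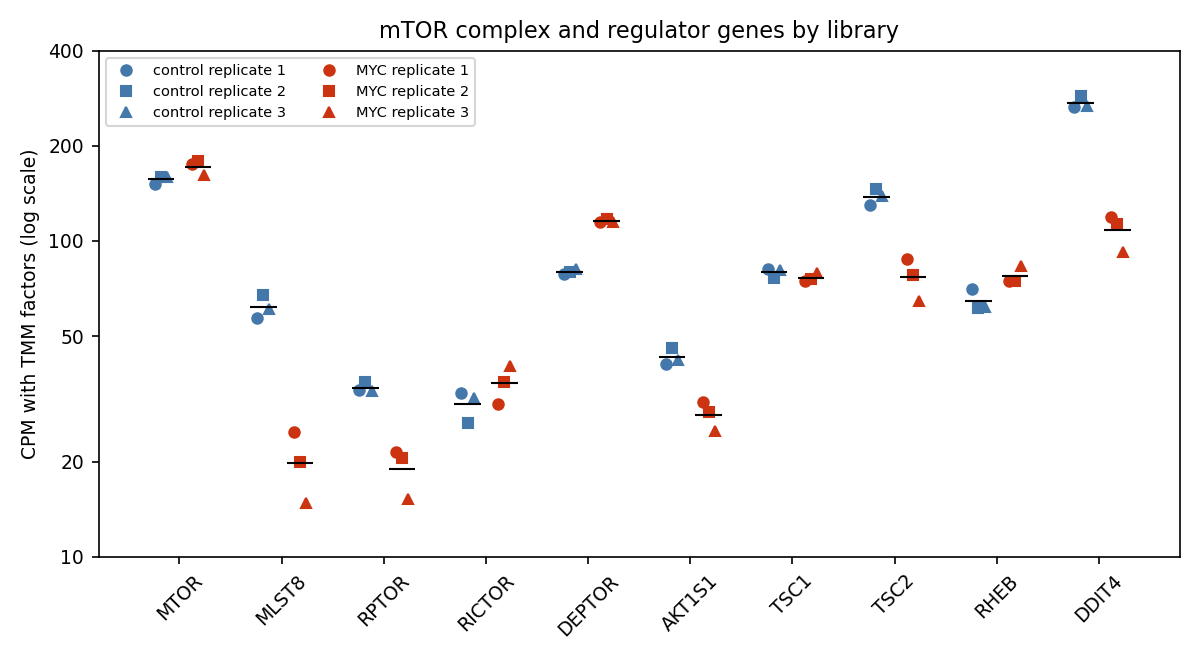
CPM with TMM scaling factors (log axis) of the 10 genes in each library; points are libraries, with marker shape giving the replicate number, and bars are group means. The 3 MYC libraries lie apart from the 3 controls for every gene except RICTOR and TSC1, and among GC-rich genes such as MLST8 and TSC2 MYC replicate 3 is the lowest.

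MTOR, the catalytic subunit of both complexes, was measured at 152, 159 and 159 CPM in the controls and 175, 179 and 162 CPM in the MYC libraries. The groups did not overlap, but MTOR was not called: the difference on the log2 scale was 0.13 ± 0.06 (SE), with an adjusted p of 0.0723 (edgeR). The GC offset brought it to 0.02 ± 0.04 (adjusted p = 0.622, edgeR). MTOR was called higher with RLE factors (0.15), with DESeq2 (0.15), with the effective length offset (0.20) and without MYC replicate 3 (0.18).

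MLST8, the WD-repeat subunit that binds the kinase domain, had the largest difference of the 10 as fitted; with the GC offset AKT1S1 (0.53) differed more. It stood at 57.1, 67.5 and 60.9 CPM in the controls and at 24.8, 19.9 and 14.8 CPM in the MYC libraries. Every MYC library was below every control, and MYC replicate 3, whose GC-rich genes were lowest in general, was the lowest. MLST8 fell 3.15-fold (log2 fold change -1.66 ± 0.16, adjusted p = 5.58e-05, edgeR). The 645 tested genes within 1 percentage point of its GC content had a median log2 fold change of -1.18. After the GC offset MLST8 was 1.41-fold lower (-0.50 ± 0.06, adjusted p = 0.000131, edgeR), at 40, 42.4 and 40.9 CPM against 32.5, 28.6 and 26.8 CPM. Its exons share 3.79% of their length with the antisense neighbour BRICD5 (2.92 CPM on average), whose reads a kit without strand does not separate.

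RPTOR, the scaffold that recruits mTORC1 substrates, was measured at 33.8, 35.7 and 33.5 CPM in the controls and 21.4, 20.5 and 15.2 CPM in the MYC libraries, which did not overlap. It fell 1.81-fold (-0.86 ± 0.12, adjusted p = 0.000367, edgeR), where genes of like GC content had a median of -0.61. The offset left it 1.23-fold lower (-0.30 ± 0.06, adjusted p = 0.00277, edgeR), with 29.5, 28 and 27.4 CPM against 23.8, 24.2 and 20.7 CPM. In the deposited TPM the difference was -0.48 on the log2(TPM + 1) scale (adjusted p = 0.00893, limma).

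RICTOR, the scaffold of mTORC2 and the least GC-rich of the 10, was not called. The control libraries held 32.9, 26.6 and 31.8 CPM of RICTOR against 30.4, 35.9 and 40.2 CPM with MYC, and the groups overlapped. The log2 fold change was 0.23 ± 0.12 (adjusted p = 0.122, edgeR), the same as the median of genes of like GC content (0.23), and -0.07 ± 0.06 with the GC offset (adjusted p = 0.395, edgeR). It was called higher with the effective length offset (0.34) and without MYC replicate 1 (0.32).

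The 2 inhibitory subunits did not move together. DEPTOR stood at 78.7, 79.5 and 81.3 CPM in the controls and at 115, 117 and 115 CPM in the MYC libraries, with a gap between the groups many times the spread within them. DEPTOR rose 1.45-fold (0.54 ± 0.05, adjusted p = 3.9e-05, edgeR). The rise was 1.32-fold with the GC offset (0.41 ± 0.03, adjusted p = 7.58e-06, edgeR). In TPM it went from 50.3 ± 2.79 to 62.3 ± 2.54 (SD, n = 3 libraries each), a smaller difference of 0.30 on the log2(TPM + 1) scale (adjusted p = 0.00576, limma). Genes of like GC content had a median of 0.08.

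For AKT1S1 no direction can be given. The control libraries held 40.9, 46 and 42 CPM of AKT1S1 and the MYC libraries 30.9, 28.7 and 25.1 CPM, lower in each (log2 fold change -0.61 ± 0.09, adjusted p = 0.000422, edgeR). The 681 genes within 1 percentage point of its 62.9% GC had a median of -1.15, so AKT1S1 differed less than they did. With the GC offset it was called higher, at 0.53 ± 0.05 (adjusted p = 1.65e-05, edgeR), with 29, 29.3 and 28.5 CPM in the controls and 40.1, 40.7 and 44.5 CPM in the MYC libraries. The groups did not overlap either way. AKT1S1 shares 6.83% of its exonic length with the antisense gene TBC1D17, at 40 CPM on average, and their reads were not told apart.

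**Figure D2:**
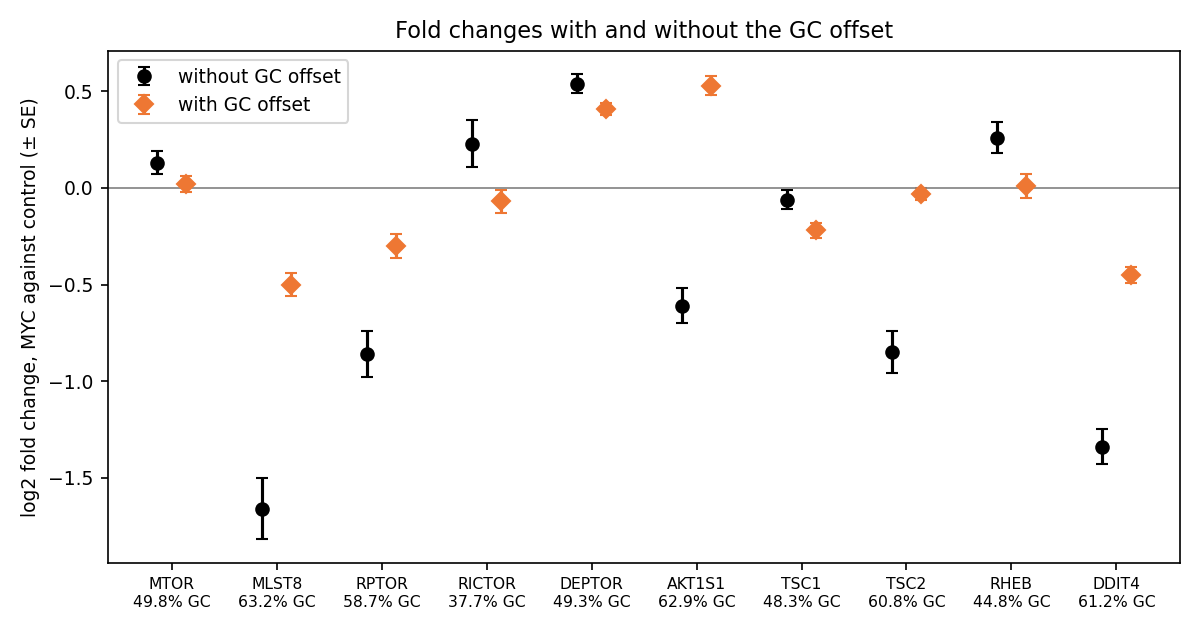
Log2 fold change of MYC against control for each of the 10 genes, with its standard error, as fitted (circles) and with the GC offset (diamonds), and the GC content of the transcripts under each name. DEPTOR lies above 0 and MLST8, RPTOR and DDIT4 below 0 both ways, TSC2 and RHEB move to near 0 with the offset, and AKT1S1 changes sign.

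Of the TSC complex, TSC1, which stabilises TSC2, was measured at 81.3, 76.6 and 81.1 CPM in the controls and 74.7, 76 and 79.1 CPM in the MYC libraries. These overlapped (-0.06 ± 0.05, adjusted p = 0.401, edgeR). Under the GC offset the groups came apart and TSC1 was called lower by 1.17-fold (-0.22 ± 0.04, adjusted p = 0.00145, edgeR).

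TSC2, which carries the GTPase-activating domain towards RHEB, stood at 130, 146 and 139 CPM in the controls and at 87.8, 77.8 and 64.6 CPM in the MYC libraries. It fell 1.81-fold (-0.85 ± 0.11, adjusted p = 0.000185, edgeR), the same size as the median of the 946 genes of like GC content (-0.86). The call ended with the GC offset, at -0.03 ± 0.03 (adjusted p = 0.46, edgeR), where the controls were at 103, 104 and 104 CPM and the MYC libraries at 104, 100 and 99.9 CPM. TSC2 shares exonic bases with the antisense genes PKD1 (3.96% of its exonic length) and NTHL1 (2.05%).

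RHEB was measured at 70.7, 61.4 and 61.6 CPM in the controls and 74.6, 74.5 and 83.2 CPM in the MYC libraries. It rose 1.2-fold (0.26 ± 0.08, adjusted p = 0.016, edgeR), and genes of like GC content had a median of 0.18. The call ended with the GC offset (0.01 ± 0.06, adjusted p = 0.92, edgeR) and in TPM, where the groups overlapped (adjusted p = 0.118 on log2(TPM + 1), limma). It also ended without control replicate 2 (0.22, adjusted p = 0.0716, edgeR) or control replicate 3 (0.22, adjusted p = 0.078, edgeR). Its processed pseudogenes RHEBP1, RHEBP2 and RHEBP3 took at most 0.302 CPM in either group.

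DDIT4 was the most abundant of the 10 in the controls, at 265.8, 286.5 and 267.5 CPM, and stood at 119.2, 113.1 and 92.5 CPM in the MYC libraries. It fell 2.53-fold (-1.34 ± 0.09, adjusted p = 1.17e-05, edgeR). Genes of like GC content had a median of -0.94. Under the offset DDIT4 was 1.37-fold lower (-0.45 ± 0.04, adjusted p = 6.92e-06, edgeR), at 206, 200 and 196 CPM against 144, 148 and 147 CPM. An antisense gene, DDIT4-AS1, covers 41.2% of its exonic bases and held 0.644 CPM on average, so how reads were split there rests on the authors' counting.

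**Figure D3:**
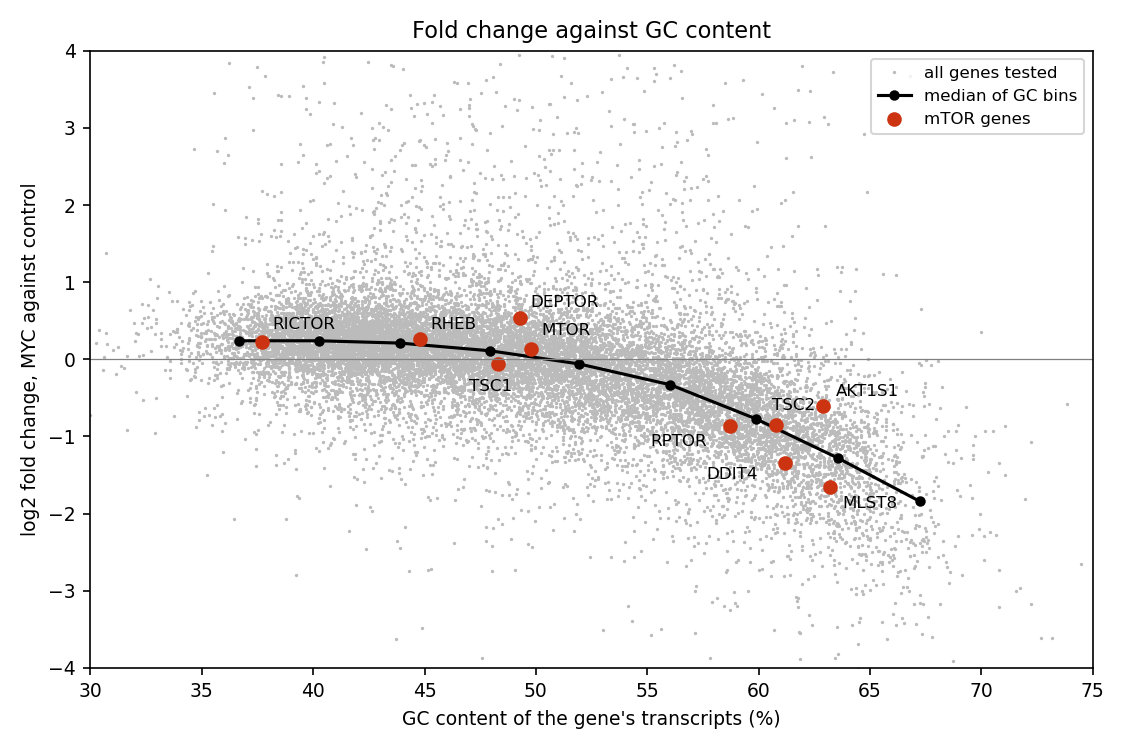
Log2 fold change of MYC against control (vertical) against the GC content of each gene's transcripts in percent (horizontal) for the 17202 tested genes with a GC value, of which 169 lie outside the axes; the line joins medians of GC bins and the large points are the 10 mTOR genes. TSC2 and RICTOR lie on the line, MLST8, DDIT4 and RPTOR below it, and AKT1S1 and DEPTOR above it.

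Across the bins of that plot the median log2 fold change ran from 0.24 for genes of 38 to 42% GC to -0.77 for 58 to 62% and -1.28 for 62 to 66%. Over the 10 mTOR genes Spearman's rho between GC content and log2 fold change was -0.81, and -0.24 with the offset, against -0.56 over all tested genes before it. These correlations are descriptions across genes, which share the same 6 libraries.

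Per length, in TPM, the order of the members differed between the groups. In the controls DDIT4 (240 ± 1.22) was above all others, followed by RHEB (74.3 ± 11.6), TSC2 (65.8 ± 3.29) and MLST8 (60.7 ± 3.3), whose neighbours in that order overlapped. DEPTOR (50.3 ± 2.79), MTOR (32.3 ± 0.89), AKT1S1 (26.3 ± 1.04), TSC1 (16.2 ± 0.706), RPTOR (10.3 ± 0.371) and RICTOR (5.21 ± 0.784) followed without overlap (SD, n = 3). In the MYC libraries DDIT4 (90.8 ± 8.29) and RHEB (88.8 ± 10.6) overlapped at the top. DEPTOR (62.3 ± 2.54) came next, clear of its neighbours. TSC2 (37.4 ± 0.787) and MTOR (36.3 ± 2.94) overlapped, as did MLST8 (20.5 ± 4.68) with TSC1 (16.2 ± 0.9), TSC1 with AKT1S1 (16.1 ± 0.83), and RPTOR (7.13 ± 1.04) with RICTOR (6.44 ± 0.992).

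Ratios of TPM within a library set the partners against each other. The RPTOR to RICTOR ratio, mTORC1 scaffold to mTORC2 scaffold, was 1.68, 2.3 and 2.03 in control libraries against 0.972, 1.41 and 0.991 with MYC. The TSC2 to TSC1 ratio was 3.87, 4.19 and 4.11 against 2.46, 2.36 and 2.12. MLST8 to MTOR, the subunits common to both complexes, was 1.72, 2.01 and 1.92 against 0.763, 0.55 and 0.412, a 3.37-fold lower ratio. RHEB to TSC2 was 1.39, 1.01 and 1 against 2.09, 2.29 and 2.75.

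In each of these 4 ratios the groups did not overlap. For each the exact two-sided permutation test over libraries gave p = 0.1 (0.15 adjusted over the 6 ratios computed), the smallest p that 3 against 3 allows, so none can pass 0.05. The remaining ratios overlapped: DEPTOR to MTOR averaged 1.56 ± 0.127 in the controls and 1.72 ± 0.0702 in the MYC libraries (exact permutation p = 0.2), and AKT1S1 to RPTOR 2.56 ± 0.0286 and 2.3 ± 0.459 (exact permutation p = 0.4). The log2 differences with the GC offset were taken from CPM, not from TPM. With the offset MLST8 to MTOR stayed lower at -0.52 without overlap, and RPTOR to RICTOR (-0.23) and RHEB to TSC2 (0.04) overlapped. TSC2 to TSC1 turned to 0.19, higher in every MYC library. AKT1S1 to RPTOR (0.83) and DEPTOR to MTOR (0.38) were higher in every MYC library with the offset. DEPTOR to MTOR was 0.14 in TPM and 0.4 in CPM without the offset, so the offset itself added no rise. AKT1S1 to RPTOR was -0.17 in TPM and 0.26 in CPM without the offset, so its sign had already changed with the unit. The other ratios had the same direction in TPM and in CPM without the offset.

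**Figure D4:**
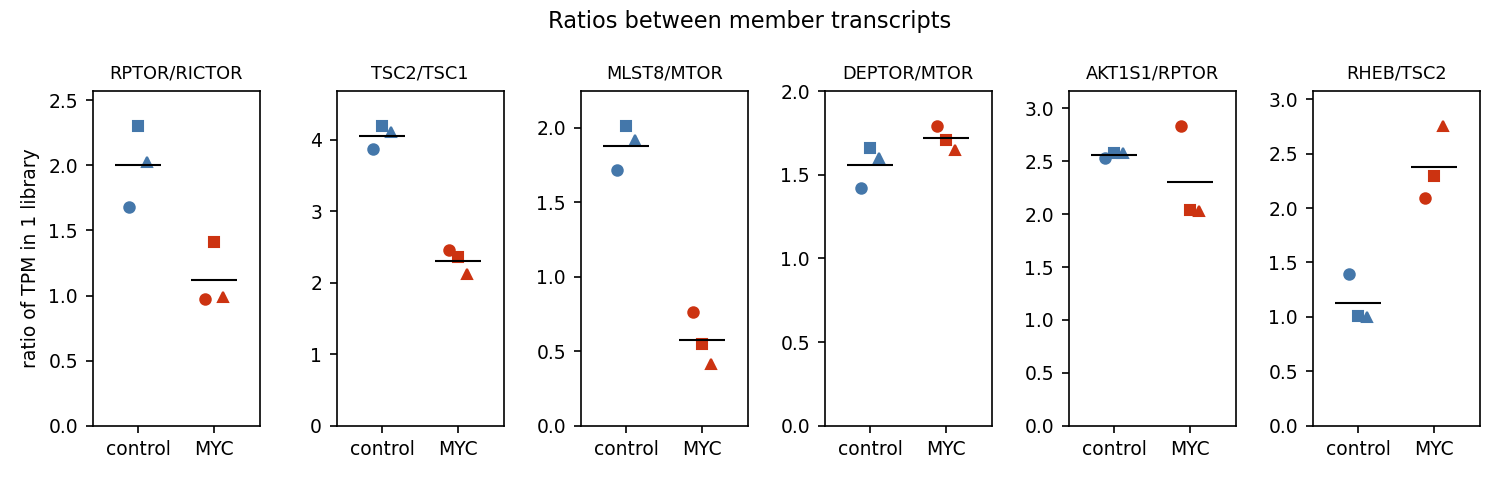
Ratio of the TPM of 2 genes within each library (vertical axes from 0), controls at left and MYC libraries at right in each panel, with marker shape giving the replicate number and bars the group means. The groups are apart for RPTOR/RICTOR, TSC2/TSC1, MLST8/MTOR and RHEB/TSC2, and overlap for DEPTOR/MTOR and AKT1S1/RPTOR.

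The genes most like the called members, by root mean square distance of centred log2 CPM over the 6 libraries among 10564 genes, were RTCB, EXOSC2 and ZCCHC17 for DEPTOR (0.013 to 0.0186), PIGX, MTX2 and NEIL3 for RHEB (0.0122 to 0.0195), and IRF3, MIDEAS and UBXN6 for DDIT4 (0.0356 to 0.0397). MLST8 had CPSF1 and GTPBP6 among them (0.0353 and 0.0441). They were for RPTOR TAPBP, KCTD17 and CCDC120 (0.0228 to 0.0318), for TSC2 NAPA, KEAP1 and MOV10 (0.0252 to 0.0261), and for AKT1S1 TMEM205, FLII and TNIP1 (0.0145 to 0.0232). The GC content of the genes listed for MLST8 was 62.9 and 63.4%, and that of the genes listed for DEPTOR 47.4 to 49.1%, near the members' own.

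MYC with its partner MAX binds the E-box CACGTG. Of the members, 7 have a start site in the RefSeq promoter table used (GRCh38.p14), and the 250 bases before the start were searched on both strands. TSC2 was the 1 member with a CACGTG, in 1 of its 2 windows, 114 bases before the start, against 6.34% of 35116 promoters. TGATGNAA, the C/EBP-ATF composite element bound by ATF4 with a partner, was also found among members in that TSC2 window only, where it overlaps the E-box, against 3.14% of promoters. A match is a description of letters, and its absence from these windows says nothing of the factors.

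Around the core, 100 further symbols of the pathway were followed in 13 lists, of which 99 had a row. Of the 97 that passed the filter, 29 were called higher and 40 lower, and with the GC offset 26 and 39, beside 28.8% and 32.1% of all genes tested, and 25.8% and 32.7% with the offset; these shares are also the background of each list. Of the 97, 42 had the same call both ways and 4 opposite calls. The median log2 fold change was -0.11, and -0.09 with the offset. Among all genes tested these medians were -0.02 and -0.06.

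**Figure D5:**
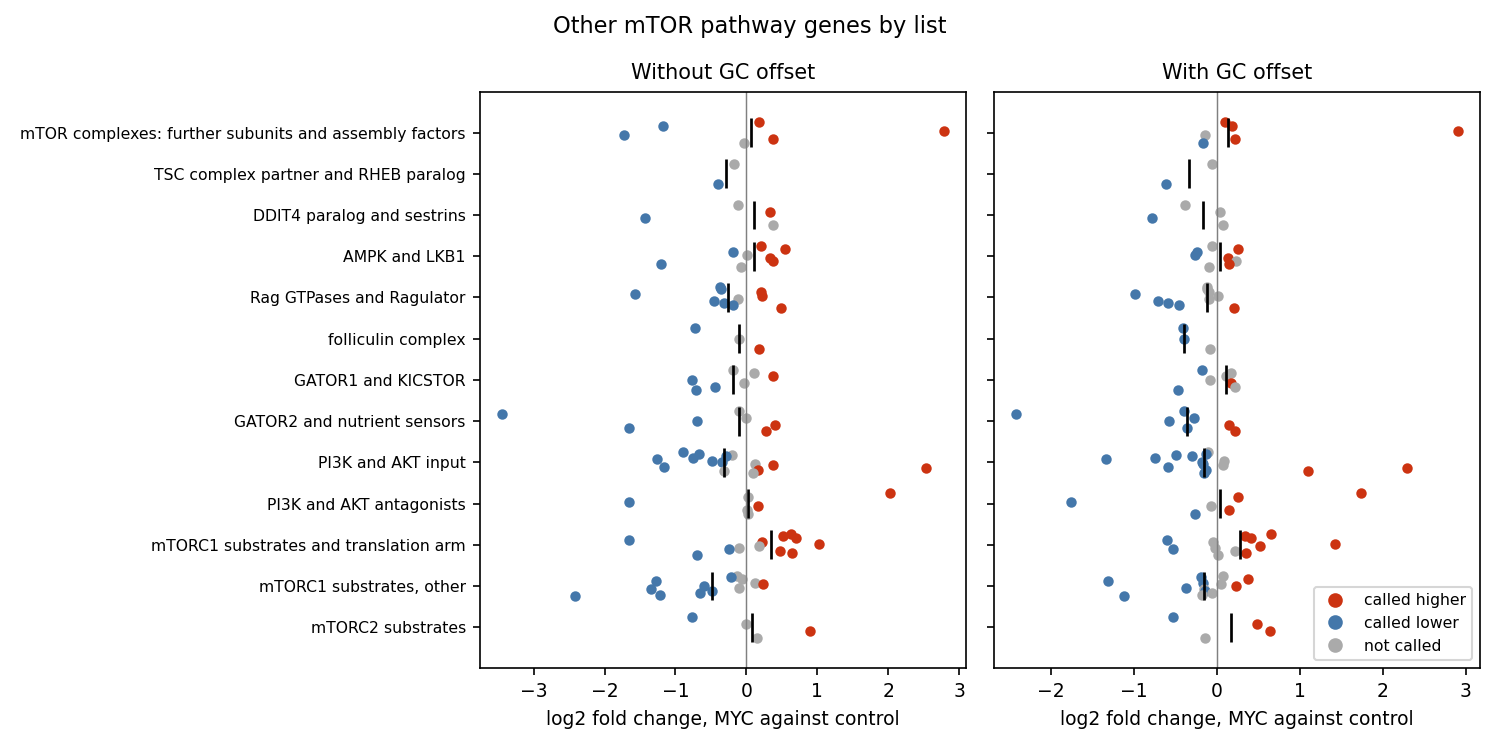
Log2 fold change of MYC against control for the 97 tested pathway genes, grouped by list, as fitted (left) and with the GC offset (right); colours give the call and bars the list medians. The list of mTORC1 substrates in translation has a median of 0.34 (0.28 with the offset), and the nutrient inputs hold genes on both sides of 0.

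Among the further complex subunits and assembly factors, 3 of 6 were called higher and 2 lower (4 and 1 with the offset). MAPKAP1, the mTORC2 subunit also called SIN1, went from 191 to 217 CPM (0.18 ± 0.05, adjusted p = 0.0123, edgeR, and 0.10 with the offset). Its call ended without control replicate 3 (adjusted p = 0.0508, edgeR) and without an expression filter (adjusted p = 0.187, edgeR). TTI1, an assembly factor of mTOR-family kinases, rose from 54 to 69.9 CPM (0.37, and 0.22 with the offset). Its partner TELO2 fell from 15.7 to 4.88 CPM (-1.72), a call that ended with the offset (-0.14). PRR5, an mTORC2 subunit of 64.5% GC, was called lower at -1.17 and higher at 0.18 with the offset, so it has no direction here. PRR5L was called higher but stood at only 0.0694 and 0.501 CPM.

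TBC1D7, the remaining subunit of the TSC complex, fell from 61.7 to 46.8 CPM (-0.40 ± 0.06, adjusted p = 0.000667, edgeR), and more with the offset (-0.61). The RHEB paralog RHEBL1 was not called either way (-0.18, and -0.06 with the offset). SESN2, a leucine sensor that is induced by stress and restrains mTORC1, fell from 476 to 176 CPM (-1.43 ± 0.13, adjusted p = 3.82e-05, edgeR), and -0.78 with the offset. SESN1 rose from 12 to 15.1 CPM (0.33), a call that ended with the offset (0.04). SESN3 and DDIT4L were under 1 CPM on average in both groups.

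Of 8 tested AMPK and LKB1 genes, 4 were called higher and 2 lower (3 and 2 with the offset). PRKAA1, the catalytic subunit of AMPK expressed here, rose from 38.7 to 56.8 CPM (0.55 ± 0.07, adjusted p = 0.000158, edgeR), and 0.26 with the offset. STK11 (LKB1), the kinase upstream of AMPK, was called lower at -1.20 and higher at 0.15 with the offset.

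Of the 10 Rag GTPase and Ragulator genes, which dock mTORC1 on the lysosome when amino acids are present, 3 were called higher and 6 lower (1 and 4 with the offset). LAMTOR4, a Ragulator subunit, fell from 70.5 to 24.1 CPM (-1.57 ± 0.26, adjusted p = 0.000947, edgeR), and -0.99 with the offset. RRAGB fell from 19.1 to 14 CPM (-0.45, and -0.71 with the offset) and RRAGC from 93.8 to 75.2 CPM (-0.32, and -0.59). SLC38A9, the lysosomal arginine sensor, rose from 26.1 to 36.7 CPM (0.49, and 0.21 with the offset). Of the folliculin complex, which acts on RRAGC and RRAGD, 1 of 3 genes was called higher and 1 lower (0 and 2 with the offset). FLCN fell from 20.9 to 12.6 CPM (-0.73, and -0.41 with the offset). FNIP2 was called higher (0.18, adjusted p = 0.0179, edgeR), a call that ended in 9 of 17 alternatives and turned with the offset (-0.08), and FNIP1 was not called (-0.11) but was called lower with the offset (-0.40).

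GATOR1, which switches the Rag GTPases off, and its anchor KICSTOR had 1 of 7 genes called higher and 3 lower (1 and 2 with the offset). Of GATOR2 and the nutrient sensors, 2 of 7 tested were called higher and 3 lower (2 and 5 with the offset). WDR24 fell from 40.7 to 13.1 CPM (-1.65 ± 0.16, adjusted p = 5.34e-05, edgeR, and -0.36 with the offset) and SEC13, shared with vesicle coats, from 154 to 95.7 CPM (-0.69, and -0.58), while WDR59 rose from 51.6 to 62.8 CPM (0.28, and 0.22) and SEH1L from 45.1 to 59.9 CPM (0.41, and 0.15).

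In the PI3K and AKT input, 3 of 15 genes were called higher and 8 lower (2 and 10 with the offset). The insulin receptor gene INSR fell from 343 to 204 CPM (-0.75 ± 0.05, adjusted p = 1.27e-05, edgeR) and the adaptor IRS1 from 86.2 to 36 CPM (-1.26 ± 0.09, adjusted p = 1.11e-05, edgeR). With 51.9 and 50.7% GC, both kept these sizes with the offset (-0.75 and -1.33). PIK3CD, a catalytic subunit enriched in leukocytes, fell from 54.6 to 24.7 CPM (-1.16, and -0.59 with the offset), and PIK3CG, another leukocyte isoform, rose from 2.16 to 12.4 CPM (2.53 ± 0.10, adjusted p = 7.46e-07, edgeR, and 2.29). Among 6 antagonists 2 were called higher and 1 lower (3 and 2 with the offset). The phosphatase gene PHLPP1 fell from 2.39 to 0.734 CPM (-1.66, and -1.76), a call that ended on log2(TPM + 1) (adjusted p = 0.0595, limma).

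In the translation arm downstream of mTORC1, 7 of 12 genes were called higher and 3 lower (6 and 2 with the offset), with a median of 0.34, and 0.28 with the offset. RPS6KB1, an S6 kinase, rose from 55.3 to 86.1 CPM (0.64 ± 0.06, adjusted p = 5.85e-05, edgeR, and 0.35 with the offset). Its paralog RPS6KB2 went the other way as fitted, from 66.4 to 40.9 CPM (-0.70, adjusted p = 0.00397, edgeR). That call ended with the offset (0.01). The cap-binding factor EIF4E rose from 74.2 to 120 CPM (0.70, and 0.41), EIF4B from 1184 to 1687 CPM (0.51, and 0.34) and the elongation factor kinase EEF2K from 25.6 to 39.9 CPM (0.63, and 0.65). EIF4E and EIF4B have processed pseudogenes, whose reads were not examined here. EIF4EBP1, the repressor of EIF4E that mTORC1 inactivates, fell from 159 to 50.7 CPM (-1.66 ± 0.20, adjusted p = 0.000152, edgeR, and -0.60). PDCD4 was also called lower both ways, from 639 to 539 CPM (-0.24, and -0.53 with the offset). EIF4EBP1, RPS6KB2 and PDCD4 were singled out after their values were seen. The paralogs of EIF4EBP1 went the other way as fitted. EIF4EBP2 was called higher, from 217 to 252 CPM (0.22, adjusted p = 0.0109, edgeR), a call that ended with the offset (-0.05). EIF4EBP3 was called higher both ways (1.03, and 1.42 with the offset) but stood at only 0.416 and 0.946 CPM.

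Of 13 other mTORC1 substrates and effectors, 1 was called higher and 8 lower (2 and 6 with the offset). ULK1, the autophagy kinase that mTORC1 inhibits, fell from 59.6 to 11.2 CPM (-2.42 ± 0.11, adjusted p = 1.51e-06, edgeR, and -1.12 with the offset), and GRB10, an adaptor that dampens insulin signalling, from 4.24 to 1.83 CPM (-1.27, and -1.31). TFE3 (-0.66) and SREBF1 (-1.35) were called lower, and both calls ended with the offset (-0.06 and -0.15). Among 4 tested mTORC2 substrates and their targets, 1 was called higher and 1 lower (2 and 1 with the offset). SGK1 rose from 250 to 465 CPM (0.90 ± 0.05, adjusted p = 4e-06, edgeR, and 0.64) and NDRG1, a target of SGK1, fell from 135 to 78.9 CPM (-0.77, and -0.53). The NDRG1 call ended in the length-scaled values, where log2(TPM + 1) gave -0.13 (adjusted p = 0.188, limma) and effective length as an offset gave -0.11 (adjusted p = 0.325, edgeR).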

How the data were processed

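Per the labels' protocols, poly-A RNA of the 6 samples was prepared with a NEBNext Ultra kit, which keeps no strand, and sequenced. Per the submitters' processing notes reads went through cutadapt and TopHat2 on GRCh37; no version is stated there. Deposited, per the file headers, is RSEM output by gene: an expected count (an estimate that divides reads among similar genes), a TPM and an effective length in bases, all as the authors computed them. After rounding, the expected counts went into edgeR 4.0.16 (R 4.3.3; default filter, TMM factors, group only, quasi-likelihood F test, Benjamini-Hochberg adjustment over 17679 genes); the script was tested on simulated data. Depth ranged 5.85-fold, and libraries of 1 group differed beyond counting noise (smallest chi-square over its degrees of freedom 7.78). Errors are SDs over libraries or standard errors of the fit.

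Symbols matched 51996 of 57820 gene rows, with 98.3% of the counts, and 99 of 100 pathway symbols. GC content was that of GENCODE 29 transcripts with the same identifiers (97.3% of tested genes); the offset removes a loess trend (span 0.4) per library, and genes without a value had none. The members and gene lists were chosen with earlier results of these data known. Named were the members, MYC, and per list up to 4 called genes with the smallest adjusted p, or 2 abundant ones, lists of up to 7 genes in full, and the 3 most like genes of each called member (mean CPM of at least 5); some of these results are not reported here. Alternatives were RLE factors, total counts, DESeq2 1.42.0, limma 3.58.1 on log2(TPM + 1) and log2(TPM + 0.1), 2 other filters, length and GC offsets, a replicate block and each library left out.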

Additional observations from a re-analysis of the deposited data

How the results depend on the processing

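The calls of DEPTOR, MLST8, RPTOR and DDIT4 kept their direction in all 17 alternatives. The GC offset gave AKT1S1 the opposite sign (0.53, also with the replicate block), called TSC1 lower (-0.22 with and without the block) and ended the calls of TSC2 (-0.03 both ways) and RHEB (0.01 both ways). Among the named pathway genes it turned PRR5 (0.18), STK11 (0.15), FNIP2 (-0.08) and PHLPP2 (-0.07) with and without the block. It also turned NPRL3 (0.22, and 0.21 with the block) and NPRL2 (0.17, and 0.16 with the block). EIF4EBP2 (-0.05), SGK3 (-0.14) and RPS6KB2 (0.01) took the opposite sign with the offset as well. RHEB was 0.26 and not called on log2(TPM + 1) or log2(TPM + 0.1), which left 1 member called higher on either scale. MTOR was called higher with RLE factors (0.15), DESeq2 (0.15) and the effective length offset (0.20), and RICTOR with that length offset (0.34), which made 4 members higher. Filtering at a mean CPM of at least 5, which tests fewer genes, left 3694 genes lower, and log2(TPM + 1) left 19 pathway genes higher. The cause of the other differences was not tested.

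With 1 library left out in turn, 1 to 3 members were called higher and 5 lower. The log2 fold change of MTOR ran from 0.09 to 0.18, RICTOR from 0.13 to 0.32 and RHEB from 0.21 to 0.31. Same-numbered libraries deviated from their group means with correlations of -0.047, 0.078 and 0.11, so the numbers were not taken as pairs, and not every library correlated best with its own number. The replicate block alone changed no call of a member: 2 were higher and 5 lower, and 4649 genes were higher and 5380 lower in all. At these depths the lowest value of a member, 14.8 CPM of MLST8 in MYC replicate 3, is far above the expression filter. The effect of depth on the calls was not tested.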
